A study of Homo sapiens with 9 samples.

Results

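ATP-binding cassette (ABC) transporters were followed by gene across 9 Affymetrix whole-transcript arrays of H9-TCF7L1 cells, a derivative of the H9 human embryonic stem cell line with a TCF7L1 transgene that doxycycline (Dox) induces. TCF7L1 is a DNA-binding factor that mostly represses targets of Wnt signalling. Members were the probe sets annotated to a single gene whose symbol is ABC, a subfamily letter from A to G and a number. This gave 47 of 19460 single-symbol probe sets, which stand for 43 of 18417 genes tested: 12 in subfamily A, 8 in B, 11 in C, 3 in D, 1 in E, 3 in F and 5 in G. The groups were cells in primitive streak differentiation medium (PS medium) for 48 h with 1 ug/ml Dox for 48 h, cells in PS medium for 48 h without Dox, and untreated cells kept in mTeSR1, a maintenance medium for pluripotent cells, with 3 arrays each. Cells of every group carried the transgene, and no group received Dox in mTeSR1. The promoter that drives the transgene, and whether the line is a single clone, were not stated in the labels.

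ABC transporters bind and hydrolyse ATP in a pair of nucleotide-binding domains and use it to move lipids, drugs, conjugates, peptides or metabolites across membranes. Subfamily A moves mainly lipids, and subfamily B holds P-glycoprotein, bile transporters and mitochondrial and lysosomal members. Subfamily C holds the multidrug resistance proteins and the sulfonylurea receptors, which regulate potassium channels rather than transport. Subfamily D acts in peroxisomes and lysosomes, subfamilies E and F lack membrane domains and act in translation, and subfamily G moves sterols and drugs. ABCG2 has long been used to mark dye-excluding stem cells.

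TCF7L1 (probe set 8043114) had deposited intensities of 13100.0, 12433 and 2699 in PS medium plus Dox, 1275, 1542 and 1611 in PS medium, and 3718, 3878.5 and 3572 in untreated cells, so that Dox array 3 was above the PS arrays but below the other Dox arrays and the untreated arrays. Across genes, arrays of a group correlated at 0.9893 to 0.994 with Dox, 0.9889 to 0.9945 in PS medium and 0.9945 to 0.9968 in untreated cells. Summed pluripotency markers (9 measured, lowest single value 437) ran from 31240 to 32820 with Dox, 25090 to 28350 in PS medium and 39710 to 41420 in untreated cells. By limma 7 of the 9 fell in PS medium over untreated cells. With Dox over PS medium 3 rose (SOX2, PODXL and DPPA4) and 1 fell (L1TD1, 2.07-fold, adjusted p = 2.85e-05). The 10 primitive streak markers summed to 15410 to 24530 with Dox, 77840 to 88240 in PS medium and 1977 to 2093 in untreated cells. Against the untreated cells TCF7L1 did not pass with Dox (log2 1.04 ± 0.47, adjusted p = 0.124), and Dox array 3 went against its label in that comparison, so Dox results are also given without it.

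Changes in the family ran in both directions in every comparison. In PS medium over untreated cells the largest were in ABCC9 and ABCG2. With Dox they were in ABCC9 and ABCC4 over PS medium, and in ABCG2 and ABCC4 over untreated cells. PS medium plus Dox against PS medium gave 5 higher and 6 lower of 43 by limma at an adjusted p of 0.05, or 25.6%, where 17.4% of all genes were called (8.91% higher and 8.44% lower). PS medium against untreated cells gave 6 higher and 5 lower, again 25.6%, where 29.8% of all genes were called (14.2% higher and 15.7% lower). PS medium plus Dox against untreated cells gave 7 higher and 7 lower, or 32.6%, where 30.3% were called (15.3% higher and 14.9% lower). In each comparison 4 members (9.3%) passed with a change of at least 1.5-fold. With Dox over PS medium 2 of these were higher and 2 lower, where 7.71% of all genes passed (3.91% higher and 3.8% lower). In PS medium over untreated cells 2 were higher and 2 lower, where 12.3% passed (5.96% and 6.38%). With Dox over untreated cells 3 were higher and 1 lower, where 11.7% passed (5.86% and 5.83%). At an unadjusted p under 0.05 the members numbered 12, 14 and 20 in the same order of comparisons, where 28.3%, 38.9% and 39.7% of all genes passed. Median log2 differences of the members were -0.011, 0.0052 and 0.0010 in that order, and of all genes 0.0020, -0.0055 and -0.00029. The share with non-overlapping arrays was 46.5% of members against 30.9% of all genes with Dox over PS medium, 37.2% against 43.3% for PS medium over untreated cells, and 48.8% against 45% for Dox over untreated cells. These shares were read from normalized values, whereas overlap described below for single genes is that of deposited intensities. Comparisons share arrays, so their counts are not separate evidence. For Dox over PS medium, the higher count was 3 without Dox array 1, PS array 1 or PS array 3. The lower count there was 1 without Dox array 2, 2 without Dox array 3 or PS array 1, and 3 without Dox array 1 or PS array 2. Without Dox array 3 it was 4 higher and 2 lower.

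**Figure D1:**
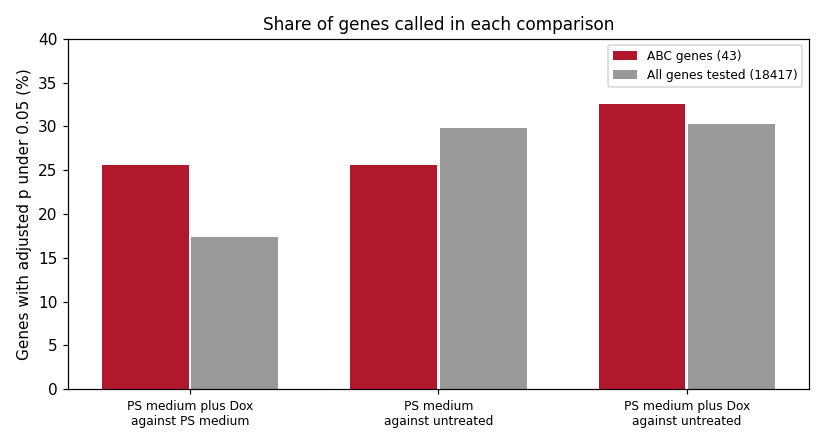
Share of genes (%) with a limma adjusted p under 0.05 in each comparison, for the 43 ABC genes (red, left bar) and all 18417 genes tested (grey, right bar). The ABC share was 25.6%, 25.6% and 32.6%, beside 17.4%, 29.8% and 30.3% of all genes.

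ABCC9 and ABCG2 rose most in PS medium over untreated cells, and both fell with Dox over PS medium. ABCC9 encodes SUR2, the regulatory subunit of ATP-sensitive potassium channels of heart and smooth muscle. ABCG2, the breast cancer resistance protein, exports drugs, urate and porphyrins. Because each array measures a bulk culture, fewer cells that express a gene and less RNA per cell cannot be told apart.

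ABCC9 (probe set 7961710) had intensities of 41.8, 44.3 and 34.0 in PS medium plus Dox, 356, 351 and 383 in PS medium, and 25.7, 31.0 and 34.7 in untreated cells. Every PS array was far above every other array, while Dox and untreated arrays overlapped on these deposited values. After normalization the Dox and untreated arrays no longer overlapped. With Dox it was 6.73-fold lower than in PS medium (log2 -2.75 ± 0.11, SE, n = 3 per group, limma adjusted p = 2.33e-07). In PS medium it was 8.28-fold higher than in untreated cells (log2 3.05 ± 0.11, adjusted p = 2.39e-08). Between Dox and untreated arrays the difference was 0.30 ± 0.11 (adjusted p = 0.0668), and 0.40 without Dox array 3, which passed (adjusted p = 0.0213). These folds depend on the offset of 16 added before the logarithm: the rise in PS medium was 3.57 on the log2 scale with an offset of 1 and 2.19 with an offset of 64, and the Dox difference was -3.14 and -2.03.

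ABCG2 (probe set 8101675) had intensities of 165, 156 and 286 with Dox, 417, 338 and 309 in PS medium, and 37.6, 58.3 and 49.7 in untreated cells. The 3 groups did not overlap, and Dox array 3, the array with the least TCF7L1 of its group, lay nearest to the PS arrays. That array was also the nearest of its group for ABCC4 and ABCA3, but the farthest for ABCC9 and ABCA1. ABCG2 rose 5.85-fold in PS medium over untreated cells (log2 2.55 ± 0.21, adjusted p = 6.89e-06). With Dox it stayed 3.38-fold above untreated cells (log2 1.76 ± 0.21, adjusted p = 0.000107). The fall with Dox against PS medium was 1.73-fold (log2 -0.79 ± 0.21, adjusted p = 0.0240). That call was lost without Dox array 1 (-0.66, adjusted p = 0.0989), Dox array 2 (-0.67, 0.0854) or PS array 1 (-0.67, 0.0924), and the difference was -1.04 without Dox array 3 (0.00187). Offsets of 1 and 64 gave rises of 2.89 and 1.91 for PS medium over untreated cells, and 2.05 and 1.24 for Dox over untreated cells.

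Primitive streak and definitive endoderm markers moved with these genes, while the muscle and pericyte sum was highest with Dox. The part of any marker in the changes was not tested. All 10 primitive streak markers rose in PS medium, and 9 of them fell with Dox. All 7 definitive endoderm markers rose in PS medium and 6 fell with Dox, with sums of 11920 to 17900 with Dox, 34720 to 55950 in PS medium and 1320 to 1385 in untreated cells (lowest single value 2.42). The 8 measured muscle and pericyte markers, which include cells known to use ABCC9, summed to 11010 to 14480 with Dox, 4257 to 6001 in PS medium and 3360 to 4364 in untreated cells (lowest single value 66.2). ACTC1, cardiac actin, made up most of the sum with Dox, with 8422, 10115 and 9199 in PS medium plus Dox, 2192, 2838 and 2162 in PS medium, and 1262, 1556 and 1328 in untreated cells. Of the 8, ACTC1 and ACTA2 rose with Dox over PS medium. With Dox over untreated cells 4 rose by limma (ACTC1, TAGLN, ACTA2 and MYH6) and 1 fell. The fall was that of CSPG4, a pericyte surface proteoglycan, by 0.55 on the log2 scale (adjusted p = 0.00259). In PS medium over untreated cells ACTC1 rose 1.68-fold (limma adjusted p = 0.00049) and TAGLN 2.22-fold (0.0123). CSPG4 fell there by 0.40 on the log2 scale (0.0158). Endothelium and blood markers, of a lineage known for ABCG2, summed to 1414 to 1545 with Dox, 1748 to 1839 in PS medium and 1749 to 1946 in untreated cells over 9 genes, with no marker at 0. That sum mixed directions. In PS medium over untreated cells VWF, a dim probe set, rose 2.06-fold (limma adjusted p = 0.00156), while TEK and ESAM fell (0.0457 and 0.0252). With Dox over PS medium only VWF passed, 2.02-fold lower (0.00316). Hepatocyte markers summed to 411.6 to 500.4, 451.7 to 467.6 and 373.5 to 451 over 6 genes in the same order of groups.

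The channel subunits that sulfonylurea receptors assemble with were measured beside them. KCNJ8, the pore subunit paired with SUR2, is the protein-coding neighbour of ABCC9 on chromosome 12. It differed by -0.092 ± 0.081 with Dox over PS medium (adjusted p = 0.529) and by -0.10 ± 0.08 in PS medium over untreated cells (adjusted p = 0.400). KCNJ8 was among the dimmest 25% of genes, with 60.3 to 92.8 over the 9 arrays, so a change could be missed. ABCC8 encodes SUR1, the sulfonylurea receptor of pancreatic beta cells, and lies next to KCNJ11, its pore subunit, on chromosome 11. ABCC8 had 293, 309 and 307 with Dox, 296, 289 and 254 in PS medium, and 422, 412 and 437 in untreated cells. Untreated arrays were above all others, while the Dox and PS arrays overlapped. It fell by 0.57 on the log2 scale in PS medium (SE 0.08, 1.49-fold, adjusted p = 0.000386) and by 0.46 with Dox against untreated cells (SE 0.08, adjusted p = 0.00158). KCNJ11, also among the dimmest 25%, fell by 0.47 on the log2 scale in PS medium against untreated cells (adjusted p = 0.00469). The sulfonylurea receptors therefore differed in direction in PS medium: ABCC9 rose and ABCC8 fell.

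Promoter sequence is shown for ABCC9 and ABCG2, which rose most in PS medium, and for ABCC4 and ABCA1, which were highest with Dox. Each run is the 250 bases before the RefSeq transcription start in GRCh38.p14, 5′ to 3′ on the gene's own strand, which is the minus strand for all 4. Capitals mark a match to a TCF/LEF core motif, CTTTGAT or CTTTGTT, on either strand. The runs are chr12:21941427-21941676 for ABCC9, chr4:88231627-88231876 for ABCG2, chr13:95301452-95301701 for ABCC4 and chr9:104928156-104928405 for ABCA1.
ABCC9: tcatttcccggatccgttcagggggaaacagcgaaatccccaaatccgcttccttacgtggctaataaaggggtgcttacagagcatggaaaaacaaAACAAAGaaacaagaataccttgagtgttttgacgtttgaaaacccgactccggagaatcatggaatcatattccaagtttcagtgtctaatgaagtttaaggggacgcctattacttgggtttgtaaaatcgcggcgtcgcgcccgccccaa
ABCG2: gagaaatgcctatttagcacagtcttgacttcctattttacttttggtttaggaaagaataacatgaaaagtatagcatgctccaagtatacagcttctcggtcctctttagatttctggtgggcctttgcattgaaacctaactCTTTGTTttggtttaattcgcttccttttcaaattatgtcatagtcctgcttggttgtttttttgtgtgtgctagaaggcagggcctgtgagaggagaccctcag
ABCC4: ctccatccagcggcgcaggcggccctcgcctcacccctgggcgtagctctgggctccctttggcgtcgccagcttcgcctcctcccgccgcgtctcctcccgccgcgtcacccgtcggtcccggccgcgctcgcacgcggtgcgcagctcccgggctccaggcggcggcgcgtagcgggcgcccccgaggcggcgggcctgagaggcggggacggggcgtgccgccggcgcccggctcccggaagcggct
ABCA1: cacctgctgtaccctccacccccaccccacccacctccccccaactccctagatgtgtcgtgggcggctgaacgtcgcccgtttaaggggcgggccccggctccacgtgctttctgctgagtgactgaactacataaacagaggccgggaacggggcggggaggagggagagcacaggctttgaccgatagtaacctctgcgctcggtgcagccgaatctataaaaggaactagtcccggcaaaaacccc
ABCC9 and ABCG2 each held 1 CTTTGTT match, starting 153 and 105 bases before the start, that of ABCC9 on the opposite strand. ABCC4 and ABCA1 held none in this window. G and C made up 46% of the ABCC9 run, 40% of the ABCG2 run, 80.4% of the ABCC4 run and 61.6% of the ABCA1 run, and CG dinucleotides numbered 15, 2, 42 and 16. RefSeq windows from 250 bases before to 50 after the start were found for 34 of the 43 genes. CTTTGTT was in 3 of these 34 (8.82%), the third being ABCA9, and CTTTGAT in 0. Of all 35116 such windows, 5.2% held CTTTGTT, 2.62% held CTTTGAT and 7.61% held either. ABCA9 differed by -0.02 ± 0.10 with Dox over PS medium and by -0.01 ± 0.10 in PS medium over untreated cells (adjusted p = 0.934 and 0.965).

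ABCC4 and ABCA1 were highest with Dox. ABCC4 encodes MRP4, which exports cyclic nucleotides, prostaglandins and conjugates. Its intensities (probe set 7972297) were 1417, 1388 and 981 with Dox, 470.4, 663 and 728 in PS medium, and 485, 492 and 465 in untreated cells. All Dox arrays were above all others, array 3 being the lowest of them, and PS array 1 fell among the untreated arrays. It rose 2.01-fold with Dox over PS medium (log2 1.01 ± 0.16, adjusted p = 0.00136) and 2.51-fold over untreated cells (log2 1.33 ± 0.16, adjusted p = 0.000126). In PS medium over untreated cells the difference was 0.32 ± 0.16 (adjusted p = 0.177), which passed without PS array 1 (0.49, adjusted p = 0.0304).

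**Figure D2:**
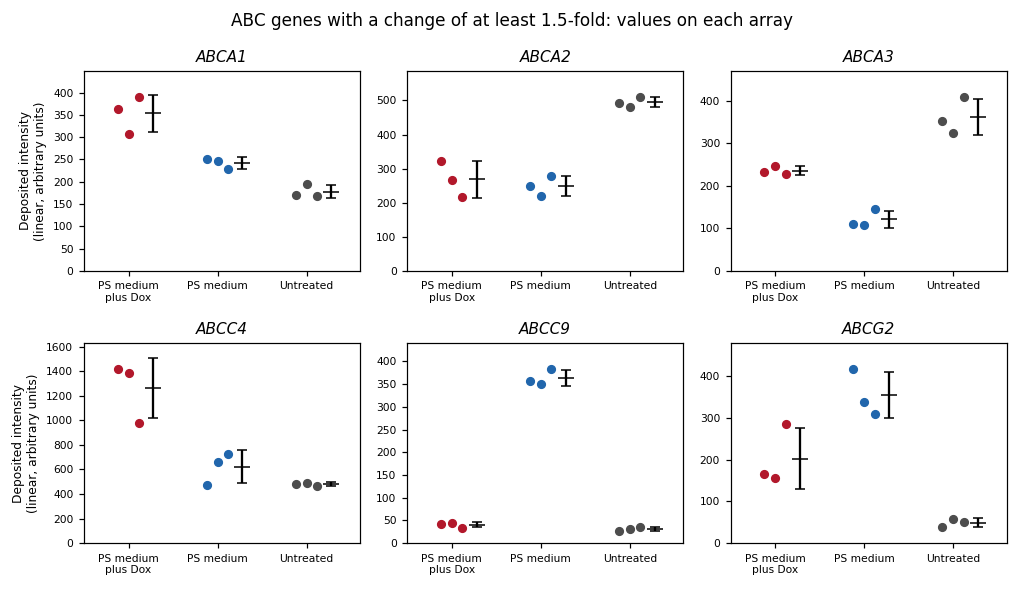
Deposited intensity (linear, arbitrary units) of the 6 ABC genes with a called change of at least 1.5-fold, on each array of PS medium plus Dox, PS medium and untreated cells from left to right. Points are arrays in replicate order, and the black dash and bar are the mean and SD of 3 arrays. ABCC9 stood at 351 to 383 in PS medium and below 45 elsewhere, and ABCC4 reached 981 to 1417 with Dox.

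ABCA1 moves cholesterol and phospholipid out of cells onto apolipoprotein A-I. Its intensities (probe set 8162940) were 362, 307 and 391 with Dox, 252, 247 and 228 in PS medium, and 170.5, 195 and 167 in untreated cells. The groups stood apart from each other. ABCA1 rose 1.43-fold with Dox over PS medium (log2 0.51 ± 0.10, adjusted p = 0.00623), 1.37-fold in PS medium over untreated cells (0.45 ± 0.10, adjusted p = 0.00733) and 1.95-fold with Dox over untreated cells (0.96 ± 0.10, adjusted p = 5.63e-05). ABCG1, which passes cholesterol to high-density lipoprotein, went the other way in PS medium. Its means were 114 ± 1.9 with Dox, 104 ± 12.1 in PS medium and 139 ± 16.2 in untreated cells (SD, n = 3). It fell by 0.33 on the log2 scale in PS medium over untreated cells (adjusted p = 0.0229), a call lost without PS array 3 (0.0768) or untreated array 3 (0.0878). With Dox over PS medium ABCG1 differed by 0.14 ± 0.09 (adjusted p = 0.405).

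Summed amnion and trophectoderm markers were also highest with Dox (9 measured, lowest single value 6.55). They ran from 28240 to 32350 with Dox, 15860 to 16490 in PS medium and 1516 to 1678 in untreated cells. TFAP2A made up most of the sum with Dox, with 16603, 18260 and 16479 there. Of the 9, 6 rose with Dox over PS medium and 0 fell by limma (0 also where p was unadjusted and under 0.05). HAND1 had its highest mean in PS medium (log2 -0.51 with Dox over PS medium, adjusted p = 0.334). In PS medium over untreated cells 5 rose and 1 fell, KRT7 by 3.37-fold (limma adjusted p = 0.00289). The part of these markers in the ABCC4 and ABCA1 changes was not tested. The levels of fibroblast markers were 3018 to 3677, 2995 to 3214 and 5863 to 6052 in the same order of groups, summed over 8 genes. THY1 made up most of the untreated sum, with 4281, 4358 and 4130 there. With Dox over PS medium POSTN rose and THY1 fell by limma. COL1A2 rose in PS medium over untreated cells, while COL1A1 and THY1 fell. With Dox over untreated cells COL1A2 and POSTN rose, and COL1A1 and THY1 fell.

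ABCA3 and ABCA2 fell in PS medium. ABCA3 loads phospholipid into the lamellar bodies of lung alveolar cells. Its intensities (probe set 7998784) were 233, 248 and 227 with Dox, 111, 108 and 145 in PS medium, and 352, 325 and 409 in untreated cells. PS arrays were lowest, Dox arrays intermediate and untreated arrays highest, with no overlap. It fell 2.75-fold in PS medium against untreated cells (log2 -1.46 ± 0.12, adjusted p = 8.28e-06). Dox gave a 1.84-fold higher level than PS medium (log2 0.88 ± 0.12, adjusted p = 0.000579) and lower than in untreated cells by 1.49-fold (log2 -0.58 ± 0.12, adjusted p = 0.00455).

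ABCA2, an endolysosomal lipid transporter abundant in brain, had intensities (probe set 8165345) of 322, 267 and 215 with Dox, 250.2, 219 and 279 in PS medium, and 494, 481 and 511 in untreated cells. Dox and PS arrays overlapped, and both groups lay below the untreated arrays. It fell 1.94-fold in PS medium against untreated cells (log2 -0.96 ± 0.13, adjusted p = 0.000232). Dox arrays were 1.83-fold below untreated arrays (log2 -0.87 ± 0.13, adjusted p = 0.000458). The Dox difference over PS medium was 0.084 ± 0.13 (adjusted p = 0.737), so the arrays did not separate the groups, and it turned to -0.039 without Dox array 1.

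**Figure D3:**
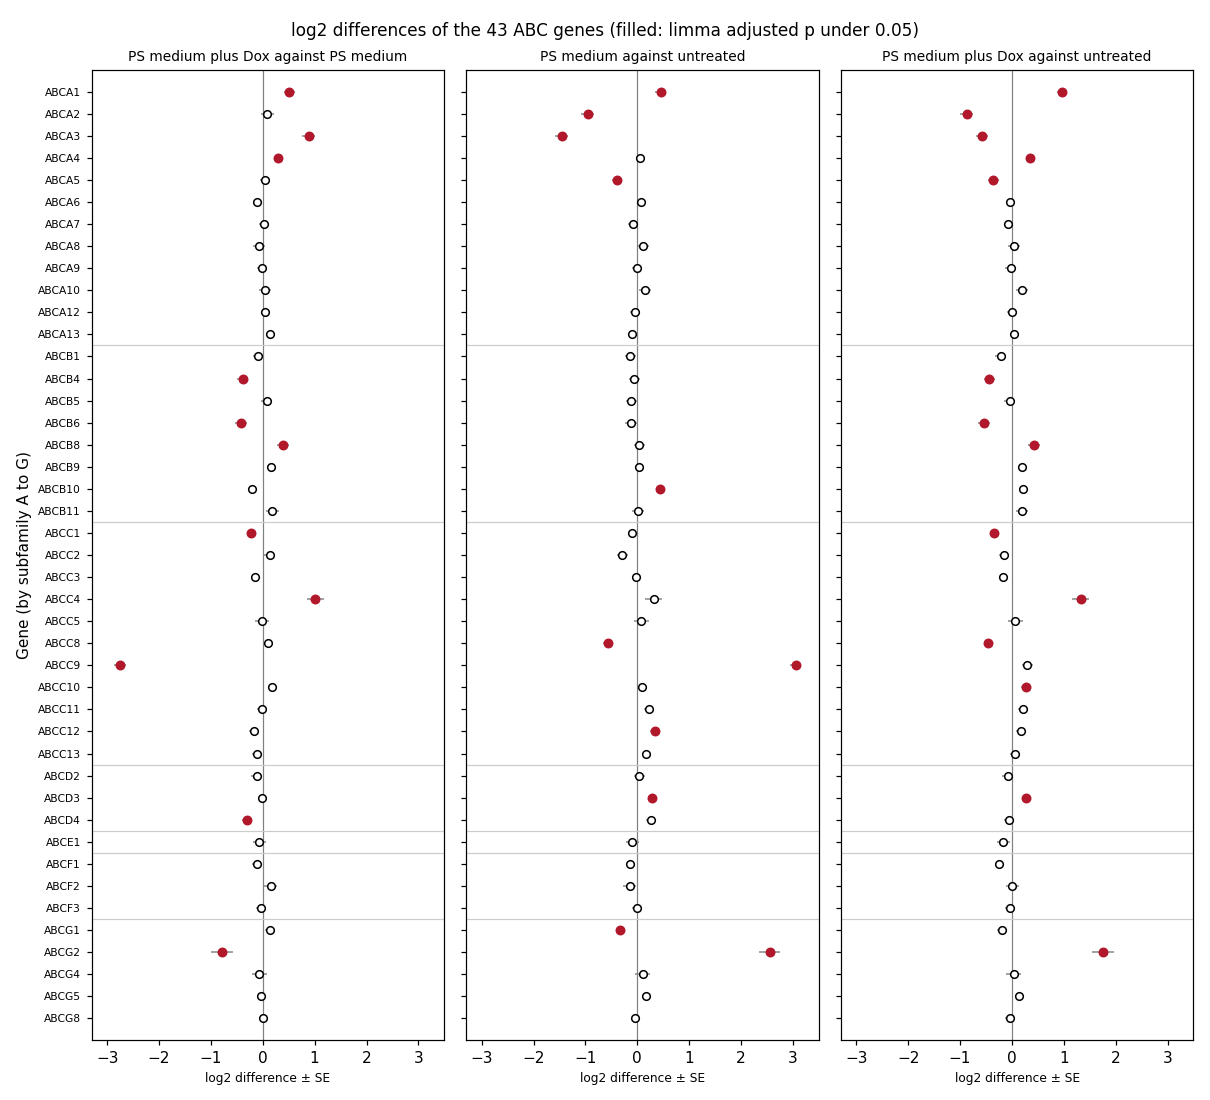
log2 differences (points, with SE as bars) of the 43 ABC genes, by subfamily from A at the top to G, for PS medium plus Dox against PS medium, PS medium against untreated cells and PS medium plus Dox against untreated cells from left to right. Filled points have a limma adjusted p under 0.05. ABCC9 lay at -2.75 and 3.05 in the first and second comparison, and ABCG2 at -0.79 and 2.55.

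The other subfamily A genes had smaller changes. ABCA4, the retinoid transporter of photoreceptors, rose by 0.30 ± 0.08 with Dox over PS medium (adjusted p = 0.0309) and by 0.35 ± 0.08 over untreated cells (adjusted p = 0.00860). The first call was lost without Dox array 1 or 3 or any PS array (adjusted p = 0.0542 to 0.107 in these cases). ABCA5, a lysosomal member, fell in PS medium over untreated cells (-0.39 ± 0.10, adjusted p = 0.0123) and with Dox over untreated cells (-0.36 ± 0.10, adjusted p = 0.0205). Its PS medium call was lost without untreated array 2 (0.0547), and its Dox call without Dox array 2 or 3 or untreated array 1 or 2 (0.0553 to 0.0842). ABCA5 is the end of a run of 5 adjacent genes on chromosome 17, ABCA8, ABCA9, ABCA6, ABCA10 and ABCA5, and the other 4 passed in no comparison. ABCA7, ABCA12 and ABCA13 also passed in none.

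In subfamily B, ABCB10, ABCB6, ABCB8 and ABCB4 passed in at least 1 comparison, each with a change under 1.5-fold. ABCB10, an inner-membrane transporter tied to haem synthesis in red cell precursors, had 538, 548 and 479 with Dox, 571, 648 and 589 in PS medium, and 439.5, 459 and 421 in untreated cells. Each group stood apart. It rose by 0.43 ± 0.08 in PS medium over untreated cells (adjusted p = 0.00198). Its Dox differences were -0.21 ± 0.08 over PS medium (adjusted p = 0.0999) and 0.22 ± 0.08 over untreated cells (adjusted p = 0.0627), and both passed with replicate number as a block (adjusted p = 0.0326 and 0.0198).

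ABCB6, a porphyrin transporter of mitochondria and other membranes, had 321, 297 and 265 with Dox, 428, 433 and 341 in PS medium, and 459, 467 and 375 in untreated cells. Dox arrays were below the rest, whereas PS and untreated arrays overlapped. It fell with Dox over PS medium (-0.42 ± 0.12, adjusted p = 0.0383) and over untreated cells (-0.54 ± 0.12, adjusted p = 0.00693). The first call was lost without any single array other than PS array 3 or untreated array 3 (adjusted p = 0.0518 to 0.130).

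ABCB8, a mitochondrial inner-membrane transporter, was read by 3 probe sets. The brightest (8137310) had 391, 437 and 345 with Dox, 263, 318 and 296 in PS medium, and 289, 314 and 264 in untreated cells, with Dox arrays above the rest. It rose by 0.39 ± 0.11 with Dox over PS medium (adjusted p = 0.0343) and by 0.42 ± 0.11 over untreated cells (adjusted p = 0.0140). The other probe sets differed by 0.28 ± 0.11 (8137332) and 0.17 ± 0.10 (8137334) with Dox over PS medium, with adjusted p = 0.135 and 0.332 in the fit of all probe sets, so the rise was called on 1 of 3 probe sets. With Dox over untreated cells they differed by 0.22 ± 0.11 (8137332, adjusted p = 0.186) and, with the opposite sign, by -0.029 ± 0.10 (8137334, adjusted p = 0.871). The call over PS medium was also lost without Dox array 1 or 2, PS array 1 or 3 or untreated array 1 (adjusted p = 0.0566 to 0.129), and the call over untreated cells without Dox array 2 (0.0547) or untreated array 3 (0.0580).

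ABCB4, which moves phosphatidylcholine into bile, averaged 54.6 ± 9.16 with Dox, 76.1 ± 6.95 in PS medium and 82.1 ± 9.35 in untreated cells (SD, n = 3). It fell with Dox over PS medium (-0.38 ± 0.11, adjusted p = 0.0291), a call lost without Dox array 2 or 3 or PS array 1 or 3 (0.0828 to 0.0971), and over untreated cells (-0.44 ± 0.11, adjusted p = 0.00914). ABCB1, its neighbour on chromosome 7 and the gene of P-glycoprotein, had 30.8, 41.7 and 35.4 with Dox, 35.9, 39.7 and 42.0 in PS medium, and 48.9, 43.7 and 45.3 in untreated cells. Its largest difference was -0.22 ± 0.11, with Dox over untreated cells (adjusted p = 0.158). ABCB9, a lysosomal peptide transporter, had 124, 127.5 and 129 with Dox, 112, 119 and 106 in PS medium, and 114, 113 and 109.5 in untreated cells. The Dox arrays lay above all others, but the differences of 0.16 ± 0.08 over PS medium and 0.20 ± 0.08 over untreated cells missed the threshold (adjusted p = 0.226 and 0.0881). ABCB5 and ABCB11, the bile salt export pump, passed in no comparison.

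**Figure D4:**
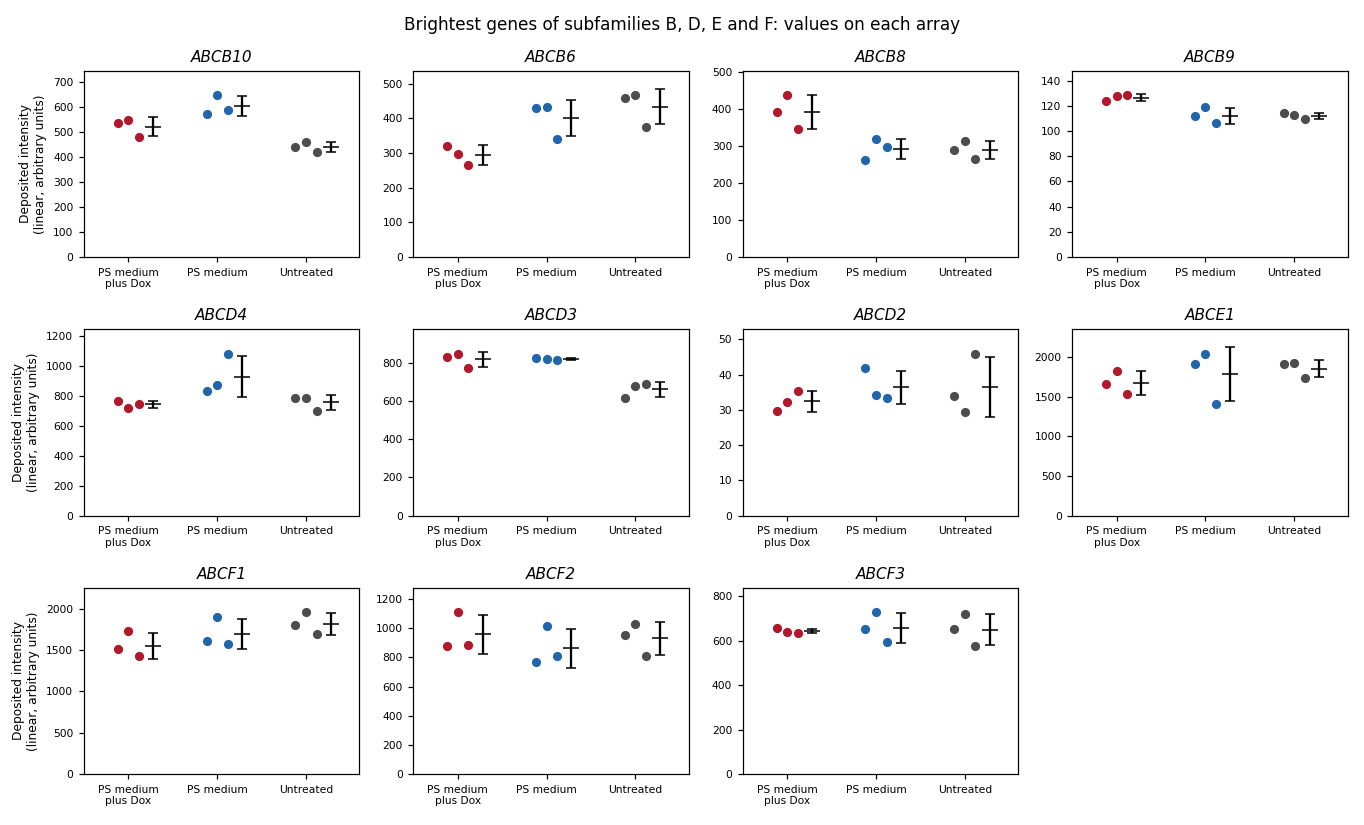
Deposited intensity (linear, arbitrary units) of the brightest genes of subfamilies B, D, E and F, at most 4 each, on the arrays of PS medium plus Dox, PS medium and untreated cells from left to right. Points are arrays, and the black dash and bar are the mean and SD of 3 arrays. ABCB10 was highest in PS medium (571 to 648) and ABCD3 lowest in untreated cells (615 to 687), whereas ABCE1 and the ABCF genes overlapped between PS medium and untreated cells.

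Other multidrug resistance proteins changed little. ABCC1 encodes MRP1, an exporter of glutathione conjugates and leukotrienes. It had 1356, 1270.2 and 1225 with Dox, 1548, 1522 and 1489.5 in PS medium, and 1578, 1658 and 1575 in untreated cells. The groups stood apart, with Dox lowest. It fell with Dox over untreated cells (-0.34 ± 0.06, adjusted p = 0.00178) and over PS medium (-0.23 ± 0.06, adjusted p = 0.0241), the second call being lost without Dox array 2 or 3 or PS array 1 or 2 (0.0550 to 0.0900). ABCC10, or MRP7, rose by 0.27 ± 0.09 with Dox over untreated cells (adjusted p = 0.0382), lost without Dox array 1 or 2, PS array 1 or untreated array 1 or 3 (0.0533 to 0.133). ABCC12, or MRP9, rose by 0.34 ± 0.09 in PS medium over untreated cells (adjusted p = 0.0168), lost without PS array 3 or untreated array 1 or 2 (0.0520 to 0.0691). ABCC11, its neighbour on chromosome 16, ABCC2, ABCC3, ABCC5 and ABCC13 passed in none. With replicate number as a block, ABCC2, the canalicular conjugate exporter, passed as a fall in PS medium over untreated cells (-0.29, adjusted p = 0.0361, against 0.0606 without the block).

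Subfamily D was represented by 3 genes. ABCD3, the peroxisomal protein PMP70, had 829, 847 and 774 with Dox, 823, 820.2 and 812 in PS medium, and 615, 677 and 687 in untreated cells. All arrays in PS medium, with or without Dox, were above the untreated arrays. It rose by 0.27 ± 0.07 in PS medium over untreated cells (adjusted p = 0.0122) and by 0.27 ± 0.07 with Dox (adjusted p = 0.0137), and both calls were lost without untreated array 1 (0.0631 and 0.0694). ABCD4, which takes part in lysosomal export of cobalamin, had 767, 717 and 741 with Dox, 830.3, 870.5 and 1080.0 in PS medium, and 783, 785 and 696 in untreated cells. It fell by 0.31 on the log2 scale with Dox over PS medium (SE 0.10, adjusted p = 0.0483), and PS array 3 was the highest array. Dox arrays lay below all PS arrays and overlapped with untreated arrays. That call held without PS array 1 and in no other case of leaving out an array (adjusted p = 0.0526 to 0.133 in the others). ABCD2, a peroxisomal fatty acid importer, had 29.7, 32.1 and 35.3 with Dox, 41.8, 34.1 and 33.2 in PS medium, and 34.0, 29.5 and 46.0 in untreated cells, and passed in no comparison.

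ABCE1, which splits ribosomes for recycling, had 1660, 1829 and 1534 with Dox, 1913, 2049 and 1409 in PS medium, and 1919, 1924 and 1735 in untreated cells. The groups overlapped, and its largest difference was -0.16 ± 0.12, with Dox over untreated cells (adjusted p = 0.369). The subfamily F genes, linked to translation initiation, likewise passed in no comparison. ABCF1 had 1507, 1731 and 1425 with Dox, 1607, 1903 and 1576 in PS medium, and 1805, 1960 and 1692 in untreated cells, on 3 probe sets that hold the same values on every array and count as 1. Its difference with Dox over untreated cells was -0.24 ± 0.09 (adjusted p = 0.0682), which passed with replicate number as a block (0.00267), as did its difference of -0.13 in PS medium over untreated cells (0.0474). ABCF2 had 876, 1111 and 888 with Dox, 769, 1017.5 and 808 in PS medium, and 955, 1031 and 809 in untreated cells. ABCF3 had 655, 639.5 and 637 with Dox, 652, 729 and 595 in PS medium, and 651, 720.5 and 579 in untreated cells. The groups of both genes overlapped in every comparison, and the largest differences were 0.15 ± 0.13 for ABCF2 with Dox over PS medium and -0.045 ± 0.10 for ABCF3 with Dox over untreated cells. In subfamily G, ABCG4, and ABCG5 and ABCG8, neighbours on chromosome 2 that form the intestinal and biliary sterol exporter, passed in no comparison.

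In all, 19 of the 43 genes (44.2%) passed in at least 1 comparison, where 42.5% of all genes did. Of the 43, 22 were among the dimmest 25% of all genes by mean. Among these 22, 5 passed in at least 1 comparison (ABCA4, ABCA5, ABCB4, ABCC9 and ABCC12) and 17 in none. Among the 21 brighter genes 14 passed and 7 did not. In a fit without the dimmest 25%, the shares of all genes called were 21.9%, 37% and 37.5%, against 17.4%, 29.8% and 30.3% with them. These follow the order Dox over PS medium, PS medium over untreated cells and Dox over untreated cells. The share of all brighter genes passing in at least 1 comparison was not taken. Without Dox array 3, the differences with Dox over PS medium were -2.65 for ABCC9 (limma adjusted p = 4.19e-07), 1.18 for ABCC4 (0.000403), 0.92 for ABCA3 (0.00153), 0.44 for ABCA1 (0.0227) and 0.46 for ABCB8 (0.0226), and those of ABCA4, ABCB4, ABCB6, ABCC1 and ABCD4 were not called (adjusted p = 0.0739 to 0.115). Over untreated cells they were 1.51 for ABCG2 (0.000101), 1.49 for ABCC4 (4.59e-05), 0.89 for ABCA1 (0.000234), -0.73 for ABCA2 (0.000653) and -0.55 for ABCA3 (0.0160). The other calls over untreated cells held without that array, except that of ABCA5 (0.0628).

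The deposited values carry no detection call, so a low value is not shown to be absence. ABCA6 and ABCA8, for example, ran from 16.3 to 21.2 and from 13.3 to 24.0 over the 9 arrays.

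Genes that work with ABC transporters were counted from fixed lists. Over all genes, 8.91% were higher and 8.44% lower with Dox over PS medium, and 14.2% and 15.7% in PS medium over untreated cells. With Dox over untreated cells the shares were 15.3% and 14.9%. ABC family genes under other symbols were TAP1 and TAP2, the peptide transporter of antigen presentation, and CFTR, the chloride channel. TAP1 fell 2.29-fold in PS medium over untreated cells (log2 -1.19 ± 0.16, adjusted p = 0.000258), and the list had 1 lower of 3 (3 with the block, in a fit of those groups alone or without Dox array 3, and 2 on values as deposited or without PS array 2). B2M, the light chain of the antigen-presenting complex, rose 2.05-fold in PS medium over untreated cells, and TAPBP, which docks TAP to it, fell by 0.73 on the log2 scale (adjusted p = 7.37e-05). B2M and TAPBP were counted in a list of 5 partners that pooled unrelated groups. The others were TAPBPL and the potassium channel subunits KCNJ8 and KCNJ11, which pair with ABCC9 and ABCC8. That list had 1 higher and 0 lower of 5 with Dox over PS medium (0 lower also at an unadjusted p under 0.05). In PS medium over untreated cells it had 1 higher and 2 lower.

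Of 13 measured nuclear receptors and other regulators of ABC genes, 2 rose with Dox over PS medium, and 0 fell by limma with 1 lower at an unadjusted p under 0.05. In PS medium over untreated cells 3 rose and 4 fell, with 1 lower after median centring, 2 lower without untreated array 2 and 1 higher without the dimmest genes. PPARG, a lipid-sensing receptor known to raise ABCA1 and ABCG2 in other cells, rose 2.11-fold with Dox over PS medium (log2 1.08 ± 0.19, adjusted p = 0.00276). It rose 2.35-fold in PS medium over untreated cells (adjusted p = 0.000670) and 4.97-fold with Dox over untreated cells (adjusted p = 8.06e-06). RXRG, a retinoid X receptor, rose by 1.11 ± 0.25 in PS medium over untreated cells (adjusted p = 0.00587). PPARG and RXRG were both among the dimmest 25% of genes by mean. NR1H3, the liver X receptor that drives ABCA1 and ABCG1 in macrophages, differed by -0.026 with Dox over PS medium (adjusted p = 0.888). Of 13 measured lipoprotein and sterol genes, 1 rose and 4 fell with Dox over PS medium, and 3 rose and 4 fell in PS medium over untreated cells (2 lower after median centring). MYLIP, a ligase that degrades the LDL receptor and a liver X receptor target, was 2.25-fold higher with Dox than in PS medium and fell 2.17-fold in PS medium over untreated cells. SOAT1, which esterifies cholesterol, rose 3.25-fold in PS medium, and CYP27A1, a sterol hydroxylase, was 3.25-fold lower with Dox than in PS medium and 2.90-fold higher in PS medium than in untreated cells.

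Glutathione genes, which make the conjugates that ABCC proteins export, had 2 higher and 2 lower of 15 with Dox over PS medium, and 4 lower with the block. Leaving out Dox array 3 or PS array 1 or 2 left 1 higher. In PS medium over untreated cells 6 were higher and 2 lower. That comparison had 3 lower with the block or without PS array 3, and 4 to 7 higher over the alternatives. MGST2, a microsomal glutathione transferase, rose 4.54-fold in PS medium over untreated cells (adjusted p = 7.01e-05) and was 2.69-fold lower with Dox than in PS medium. GSTO1 rose 3.84-fold and GSTM3 3.13-fold in PS medium. Of 11 measured peroxisomal genes, 1 rose and 2 fell with Dox over PS medium (1 lower in a fit of those groups alone or without Dox array 1 or PS array 1 or 2). In PS medium over untreated cells 0 rose by limma and 3 fell, with 1 higher at an unadjusted p under 0.05. SLC27A2, a very long chain acyl-CoA synthetase, was 2.11-fold higher with Dox than in PS medium and fell 4.49-fold in PS medium over untreated cells. ACSL1, a long chain acyl-CoA synthetase, fell by 1.18 on the log2 scale in PS medium and by 1.51 with Dox, both over untreated cells (adjusted p = 0.000232 and 4.4e-05).

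Haem and iron-sulfur genes, in whose pathway ABCB10 and ABCB6 act, fell in 7 of 14 cases in PS medium over untreated cells and rose in 0 by limma (0 also where p was unadjusted and under 0.05). That count varied with the scaling and with the arrays left out: it was 1 after median centring, 3 without PS array 1 or untreated array 3, and 4 without untreated array 2. With Dox over PS medium 1 rose and 1 fell, and either call was lost in several settings. Of 12 partners of ABCE1 and ABCF in translation, 1 rose and 1 fell with Dox over PS medium (2 lower with the block or without PS array 3). In PS medium over untreated cells 1 rose and 2 fell, the fall of EIF2AK4, the amino acid sensing kinase GCN2, being 2.32-fold (log2 -1.21 ± 0.07, adjusted p = 3.65e-07). The rise was lost without PS array 1 or 2 or untreated array 1 or 3, and the count of falls was 1 after median centring or without untreated array 1 or 2. With Dox over untreated cells the lists had 0 higher and 1 lower for ABC genes under other symbols, 1 and 1 for partners, 3 and 2 for nuclear receptors and 1 and 5 for lipoprotein and sterol genes. The same counts were 6 and 3 for glutathione, 0 and 4 for peroxisomal, 0 and 6 for haem and iron-sulfur and 2 and 4 for translation genes. Each list with 0 higher there by limma also had 0 higher where p was unadjusted and under 0.05.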

How the data were processed

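RNA of 9 samples was hybridised to Affymetrix whole-transcript arrays. The deposited values are probe set intensities on a linear scale, made with Affymetrix Expression Console 1.1.1 and PLIER 2.0 per the submitters' processing notes, with background correction and normalization not given in the sources used here. Array medians ran from 200.4 to 216.5, and the number of arrays limits the precision. Of 33297 probe sets, 19460 had 1 symbol, 1754 several and 12083 none listed, and 19429 were matched by gene number to RefSeq (GRCh38.p14). Each gene took its brightest probe set by mean. Values were converted to log2(value + 16), so folds understate changes of dim genes, and quantile-normalized, because array medians spanned 0.103 against a limit of 0.1. The fit covered all 9 arrays, with a mean for each group, in limma 3.58.1 (R 4.3.3, eBayes with a trend, 6 residual degrees of freedom), with Benjamini-Hochberg adjustment over 18417 genes. The fit was first tested on simulated data.

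Members and lists were chosen with earlier results of these data known. Arrays are printed one by one for members with a called change of at least 1.5-fold, and for at most 4 of the brightest members of a subfamily with none such. ABCB1, ABCC1 and ABCC8 were added after their values were seen. List genes are named from 2-fold, at most 3 per list and comparison, and NR1H3, TAPBP, the channel subunits and the cell type markers given by name were added likewise. Replicates are not stated to be separate cultures, so p-values cover array-to-array spread that may be technical. Arrays of the same number deviated together (correlations 0.245 to 0.428 for Dox over PS medium, 0.246 to 0.309 for Dox over untreated cells, 0.0856 to 0.397 for PS medium over untreated cells). The labels state no pairing in any comparison. The main fit therefore had no block, and replicate number as a block served only as an alternative. Alternatives changed the offset, scaling, filter on dim genes, probe sets, groups fitted, trend, replicate block and arrays left out.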

Additional observations from a re-analysis of the deposited data

How the results depend on the processing

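Of 36 calls of ABC genes over the 3 comparisons, 21 held under all 18 alternatives in which the gene was tested, 15 were lost under at least 1 and 0 were reversed. Counts for PS medium plus Dox against PS medium moved most, from 5 higher and 6 lower to 3 higher and 3 lower in a fit of those groups alone, and to 3 higher after median centring, and the cause was not tested. Leaving out 1 array gave 3 to 5 higher and 1 to 5 lower there. The ABCA2 difference, which did not pass, ran from -0.039 without Dox array 1 to 0.23 without Dox array 3. With replicate number as a block the counts were 5 higher and 7 lower for Dox over PS medium, 6 and 7 for PS medium over untreated cells, and 8 and 8 for Dox over untreated cells, and no call of an ABC gene was lost. In the labels, same-numbered arrays of different groups share only a number. Small differences of dim probe sets are limited by signal near the lowest values, and 3 arrays per group limit all comparisons. In a fit of Dox and PS medium alone, the Dox calls of ABCA4, ABCB6, ABCB8, ABCC1 and ABCD4 were lost (adjusted p by limma 0.0603 to 0.0959), and median centring lost those of ABCA4 (0.0510), ABCB8 (0.0539) and ABCD4 (0.0702). Values as deposited lost ABCA4 (0.0673) and ABCD4 (0.0592), and a fit with no trend lost ABCD4 (0.0546). The rise of ABCC10 with Dox over untreated cells was lost in a fit of those groups alone (0.0545).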
